A study of Mus musculus with 6 samples.

Results

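The genes described here carry transforming growth factor beta (TGF-beta) signalling from the ligand to the nucleus: Tgfb1, Nrros, Tgfbr1, Tgfbr2, Smad2, Smad3, Smad4, Smad7, Ski and Skil. They were taken by symbol from the deposited count table, and all 10 were found among its 11881 genes and among the 10832 genes that passed the filter on low counts. The libraries came from microglia, the resident macrophages of the brain, sorted by flow markers (CD11b present, CD45 low) out of hippocampi of male mice at postnatal day 17 to 21. There were 3 libraries labelled WT (wild type) and 3 labelled Mll5+/-, from mice heterozygous for Mll5 (now Kmt2e). The title of each library ends in a number of its own. The sources used here name no treatment, do not describe the disrupted allele and do not say whether animals were pooled.

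TGF-beta is secreted in a latent form that must be released before it can act. The freed ligand brings together a type II and a type I receptor kinase, and the type I receptor phosphorylates SMAD2 and SMAD3, which join SMAD4 and enter the nucleus. There they drive target genes, among them those for the inhibitors SMAD7 and SnoN, while the proto-oncoprotein SKI and its relative SnoN hold SMAD complexes in a repressive state. In the brain this pathway is known for keeping microglia in their resting state, and microglia use the protein NRROS to present latent TGF-beta1.

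The libraries held between 21075570 and 29730400 counts. Mll5+/- replicate 3 had the fewest counts, the fewest genes with a count (10487, against 10696 to 11053 in the other 5) and the highest mitochondrial share of counts (3.55%, against 1.88% to 2.90%). It alone was lowest for 21.9% of all tested genes, and the other libraries for 11.8% to 17.9%. Levels are given as CPM, counts at a common library size after TMM scaling (a trimmed mean that evens out differences in composition), and are compared between libraries of the same gene, not between genes. The microglial markers Tmem119, Cx3cr1, Csf1r, P2ry12, Aif1 and Itgam were present in every library. Kmt2e, the gene named in the genotype, did not differ by label (log2 fold change -0.08, SE 0.314, edgeR unadjusted p = 0.799), so the genotypes are named as the labels give them. Summed border-associated macrophage markers (5 of 6 listed, Pf4 not among them) ran from 83.0 to 126 CPM under the WT label and from 86.1 to 207 CPM under the Mll5+/- label. Summed astrocyte markers (5 of 7 listed) ran from 373 to 544 CPM and from 264 to 549 CPM, most of it from Slc1a3. Among them Gja1 alone did not overlap, with 22.7, 23.2 and 28.6 CPM against 3.51, 6.71 and 1.75 CPM. Its log2 fold change was -2.64 (edgeR unadjusted p = 0.00250, edgeR adjusted p = 0.9995, DESeq2 adjusted p = 0.0343). Oligodendrocyte markers (5 of 6) ran from 35.3 to 143 CPM and from 43.0 to 48.3 CPM. Monocyte and neutrophil markers (4 of 6) ran from 196 to 256 CPM and from 222 to 278 CPM, most of it from Csf3r. Ccr2, S100a9 and Plac8 each had at most 40.9 CPM. Endothelial and mural markers (3 of 7) ran from 13.5 to 29.4 CPM and from 13.2 to 23.3 CPM, and all 3 overlapped between labels. Of these, Flt1 had 0, 3.89 and 15.9 CPM against 0 CPM in each library labelled Mll5+/- (DESeq2 adjusted p = 0.0350, not tested in edgeR). Snap25, the 1 neuron marker listed of 6, ran from 6.77 to 16.3 CPM and from 9.59 to 32.2 CPM. The part of these cells in the levels below was not tested. Each library is a sum over many sorted cells, in which fewer cells of a type and less RNA per cell cannot be told apart.

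Start-site windows of RefSeq (mouse GRCm38.p6, 250 bases before to 50 after a transcript start) were taken for 6 of the 10 genes (7 windows). No window of Smad2, Smad4, Smad7 or Skil was searched, which does not mean that none exists. The 7 windows were searched on both strands for GGCGC, a GC-rich motif that SMAD proteins can bind, and for the classical SMAD-binding letters CAGAC. They were also searched for the palindrome GTCTAGAC, which holds AGAC on each strand. The 3 windows with GGCGC are shown, since they belong to the member of narrowest spread in these data (Tgfbr1) and to 2 of wider spread (Ski and Tgfb1). GGCGC or its reverse complement GCGCC is in capitals, and neighbouring matches can overlap.
Tgfbr1, chr4:47352972-47353271, plus strand: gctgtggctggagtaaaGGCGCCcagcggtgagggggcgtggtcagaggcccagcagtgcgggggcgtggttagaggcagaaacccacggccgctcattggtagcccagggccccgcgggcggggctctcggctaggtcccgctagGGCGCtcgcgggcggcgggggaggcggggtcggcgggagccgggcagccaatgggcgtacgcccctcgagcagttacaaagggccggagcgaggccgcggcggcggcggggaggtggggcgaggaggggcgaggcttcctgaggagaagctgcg
Ski, chr4:155222486-155222785, minus strand: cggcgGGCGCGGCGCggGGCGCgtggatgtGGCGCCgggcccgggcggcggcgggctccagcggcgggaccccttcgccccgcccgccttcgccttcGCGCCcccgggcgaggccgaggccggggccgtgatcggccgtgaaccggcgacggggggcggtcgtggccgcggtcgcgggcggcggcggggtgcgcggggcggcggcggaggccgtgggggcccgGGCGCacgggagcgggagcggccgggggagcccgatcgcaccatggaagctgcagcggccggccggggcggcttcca
Tgfb1, chr7:25686752-25687051, plus strand: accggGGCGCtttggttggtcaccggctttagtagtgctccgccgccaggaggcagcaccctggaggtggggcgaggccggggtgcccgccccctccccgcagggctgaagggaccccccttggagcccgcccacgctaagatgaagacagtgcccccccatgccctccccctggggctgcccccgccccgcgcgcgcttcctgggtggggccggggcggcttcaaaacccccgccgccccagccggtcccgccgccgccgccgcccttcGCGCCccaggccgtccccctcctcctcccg
The window of Ski held 7 matches in 85.3% G and C, that of Tgfbr1 held 3 in 74.7% and that of Tgfb1 held 2 in 77.0%. Of all 32851 windows of this length, 36.9% held GGCGC on either strand. CAGAC was in the windows of Tgfbr2 and Nrros and in a second window of Tgfbr1, and in 49.6% of all windows. GTCTAGAC was in 0 of the 7 windows and in 0.213% of all. A match describes letters in a window and is not a bound site.

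No member of the pathway differed between genotypes beyond the spread between libraries. Levels overlapped between the labels for all 10 genes, so 0 of 10 stood apart, where 9.32% of all tested genes did. In edgeR's quasi-likelihood test 0 of the 10 passed an adjusted p of 0.05, as did 0% of all tested genes (every member had an adjusted p = 0.9995). At an unadjusted p under 0.05 there were 0 of 10 in edgeR, against 2.88% of all tested genes, and also 0 of 10 in DESeq2 and 0 of 10 in limma-voom. DESeq2 passed 29 genes (0.255%), none of them a member. Fitted log2 fold changes (Mll5+/- minus WT) were negative for 6 members and positive for 4, with a median of -0.14 against 0.02 over all tested genes. The median absolute change was 0.37 for the members and 0.38 for all tested genes.

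**Figure D1:**
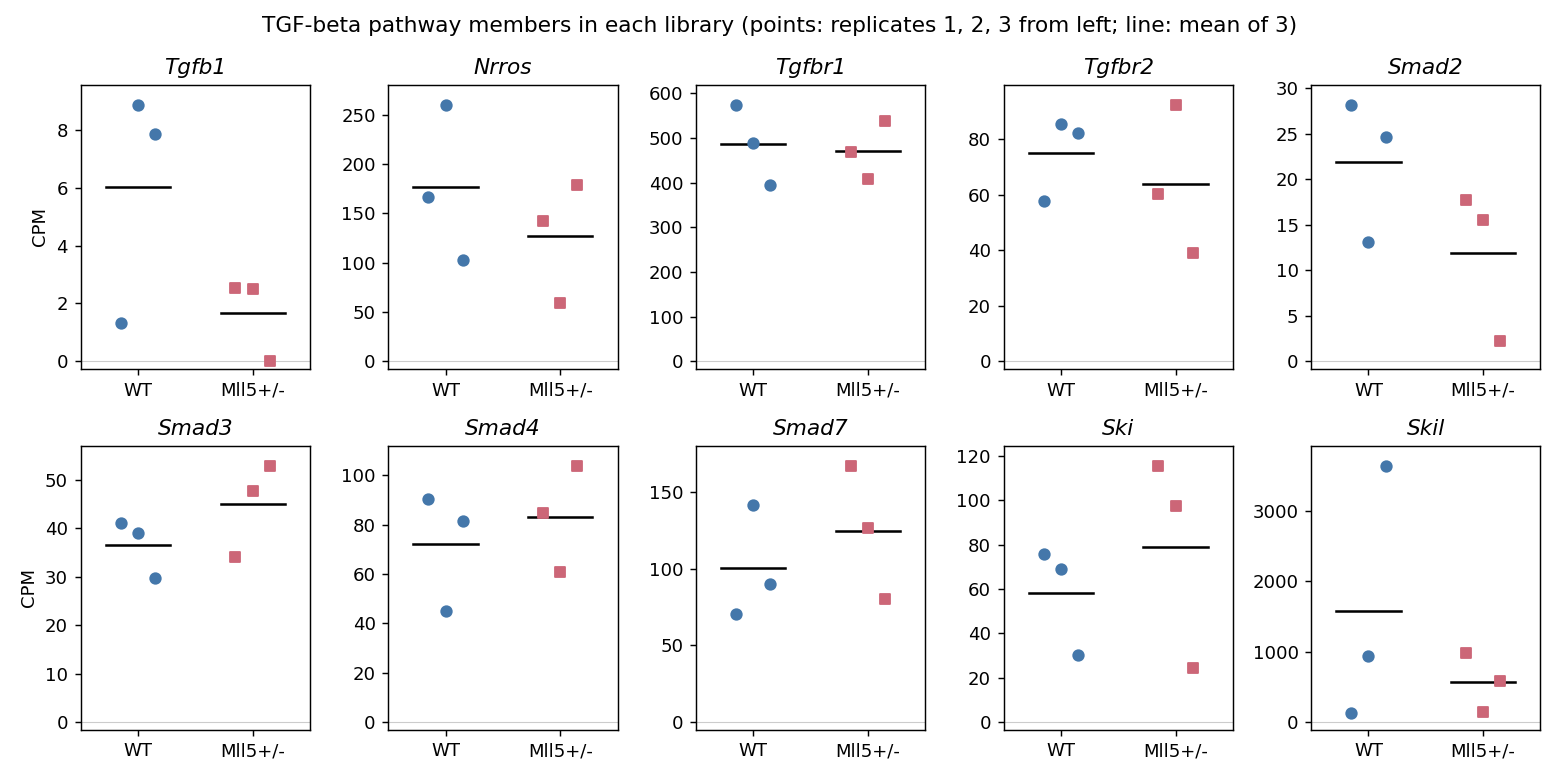
Level of each of the 10 genes in CPM (vertical axis from 0, scaled per gene) in the 3 libraries labelled WT (circles) and the 3 labelled Mll5+/- (squares), with replicates 1, 2 and 3 from left to right and a line at the mean of 3. The labels overlap in every panel, and Skil has 1 library, WT replicate 3, far above the other 5.

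Of the ligand and its carrier, Tgfb1 was scarce and Nrros was well detected. Tgfb1, the gene of the main TGF-beta ligand of microglia, lies on chromosome 7 from 25386427 to 25404502 (mm39, as the deposited table gives it). It had 1.34, 8.85 and 7.88 CPM under the WT label and 2.52, 2.49 and 0 CPM under the Mll5+/- label, from 32, 230 and 227 counts and from 64, 71 and 0 counts. WT replicate 1 lay below 2 of the 3 libraries labelled Mll5+/-, and in Mll5+/- replicate 3 a count of 0 allows up to 0.142 CPM (3 counts, counting error only). The fitted log2 difference was -1.84 (SE 1.66, unadjusted p = 0.296 in edgeR), with a 95% interval from -5.61 to 1.93, which holds both a 2-fold gain and a 2-fold loss. It was -1.27 without Mll5+/- replicate 3.

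Nrros, the milieu molecule that anchors latent TGF-beta1 on microglia, lies on chromosome 16 from 31961603 to 31984412. It had 167, 259 and 103 CPM under the WT label and 143, 58.7 and 179 CPM under the Mll5+/- label. The highest value was in WT replicate 2 and the lowest in Mll5+/- replicate 2, and the other 4 were interleaved. The means were 176 ± 78.7 and 127 ± 61.5 CPM (SD, n = 3 each), with a fitted log2 difference of -0.48 (SE 0.451, unadjusted p = 0.318 in edgeR).

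Of the receptors, Tgfbr1 was the steadiest of the 10 genes and Tgfbr2 varied more. Tgfbr1, the type I receptor kinase that phosphorylates SMAD2 and SMAD3 (chromosome 4, 47353222 to 47414931), had 573, 490 and 395 CPM under the WT label and 469, 409 and 538 CPM under the Mll5+/- label. The highest library had 1.45 times the lowest, and both were labelled WT. In edgeR the log2 fold change came to -0.04 (SE 0.199, unadjusted p = 0.834), and its 95% interval from -0.49 to 0.41 leaves out a 2-fold change in either direction.

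Tgfbr2, the type II receptor that binds the ligand first (chromosome 9, 115913361 to 116004428), had 57.9, 85.6 and 82.1 CPM under the WT label and 60.4, 92.2 and 38.9 CPM under the Mll5+/- label. Mll5+/- replicates 2 and 3 held the highest and the lowest value of the 6. edgeR put its log2 fold change at -0.24 (SE 0.365, unadjusted p = 0.534), and without Mll5+/- replicate 3 it was 0.011.

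Of the SMADs that receptors activate, Smad2 was low in a single library and Smad3 was even across all 6. Smad2 (chromosome 18, 76374651 to 76444034) had 28.1, 13.1 and 24.6 CPM under the WT label and 17.8, 15.5 and 2.27 CPM under the Mll5+/- label. Mll5+/- replicate 3, with 48 counts, stood below the other 5 libraries, which held 340 to 709 counts, and WT replicate 2 lay below the other 2 libraries labelled Mll5+/-. The fitted log2 difference was -0.89 (SE 0.740, unadjusted p = 0.261 in edgeR), and it was -0.41 without Mll5+/- replicate 3.

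Smad3 (chromosome 9, 63554049 to 63665276), the other receptor-activated SMAD of this pathway, had 41.1, 38.9 and 29.7 CPM under the WT label and 34.2, 47.8 and 52.8 CPM under the Mll5+/- label. In Mll5+/- replicate 3, in which Smad2 had its lowest value, Smad3 had its highest. In edgeR the log2 fold change came to 0.30 (SE 0.338, unadjusted p = 0.404).

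The common partner and the inhibitor of the family also overlapped. Smad4, the SMAD shared by the TGF-beta and BMP branches (chromosome 18, 73772080 to 73836851), had 90.4, 44.9 and 81.5 CPM under the WT label and 84.7, 60.8 and 104 CPM under the Mll5+/- label. edgeR put its log2 fold change at 0.20 (SE 0.348, unadjusted p = 0.577), with a 95% interval from -0.59 to 0.99. Smad7, the inhibitory SMAD that blocks the type I receptor (chromosome 18, 75500600 to 75529006), had 70.4, 142 and 89.9 CPM and 167, 126 and 80.4 CPM in the same order. Its lowest value was in WT replicate 1 and its highest in Mll5+/- replicate 1 (log2 fold change 0.31, SE 0.356, edgeR unadjusted p = 0.411).

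Smad4, Smad7 and Smad2 lie in this order within 2.67 Mb of chromosome 18. They did not share a pattern over the libraries: Smad4 was highest and Smad2 lowest in Mll5+/- replicate 3, and Smad7 was highest in Mll5+/- replicate 1.

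**Figure D2:**
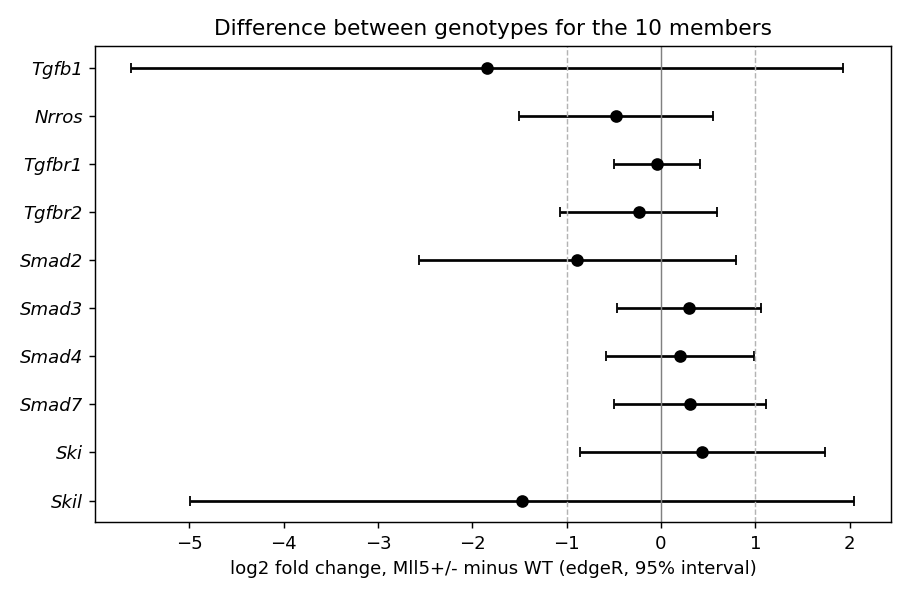
Fitted log2 fold change of each member, Mll5+/- minus WT (points), with its 95% interval from edgeR (bars), and dashed lines at a 2-fold change in either direction. All 10 intervals hold 0, and those of Tgfbr1 and Smad4 alone lie within both dashed lines.

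The 2 repressor genes were among the more variable members. Ski, which encodes a corepressor of SMAD complexes (chromosome 4, 155238532 to 155307049), had 75.8, 69.0 and 30.05 CPM under the WT label and 116, 97.5 and 24.1 CPM under the Mll5+/- label. Each label had 1 low library, replicate 3 in both, and the highest value was 4.78 times the lowest. The fitted log2 difference was 0.44 (SE 0.572, unadjusted p = 0.463 in edgeR), with a 95% interval from -0.86 to 1.74. It was 0.86 without Mll5+/- replicate 3 (unadjusted p = 0.0708) and 0.052 without Mll5+/- replicate 1.

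Skil, which encodes SnoN, the close relative of SKI and a target of the pathway it represses, had the widest range of the 10 on the scale of log2(CPM + 0.5), which rests on WT replicate 3. Placed on chromosome 3 from 31149207 to 31176726, it had 134, 942 and 3640 CPM under the WT label and 979, 148 and 577 CPM under the Mll5+/- label. These values rest on 3214, 24487 and 104903 counts and on 24812, 4211 and 12211 counts, so the spread is far wider than counting error. WT replicate 1 and Mll5+/- replicate 2 were alike at the low end, WT replicate 2 and Mll5+/- replicate 1 were alike in the middle, and WT replicate 3 alone was above all of these.

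The wide spread of Skil was known when the gene was chosen, and it is described here without a test. The highest library had 27.1 times the lowest, and within the libraries labelled Mll5+/- alone the highest had 6.62 times the lowest. Skil took 0.353% of all counts in WT replicate 3 and 0.0135% in WT replicate 1. The mean and SD were 1572 ± 1836 CPM for the label WT and 568 ± 416 CPM for Mll5+/- (n = 3 each). In edgeR the log2 fold change came to -1.47 (SE 1.34, unadjusted p = 0.327), with a 95% interval from -4.99 to 2.05, and without WT replicate 3 it was 0.075.

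On the scale of log2(CPM + 0.5), the range over the 6 libraries was 4.75 for Skil, and 4.48% of all tested genes had a wider one. The median range of all tested genes was 1.84. Among the 1720 tested genes with a mean of at least 100 CPM, for which counting error is small, the median range was 0.77 and Skil had the 52nd widest. Tgfb1 (4.23) and Smad2 (3.37) also had ranges over 3, as did 25.5% of all tested genes. Without WT replicate 3 the range of Skil was 2.86, below those of Tgfb1 and Smad2, which stayed at 4.23 and 3.37. Without Mll5+/- replicate 3 the range of Tgfb1 was 2.35 and that of Smad2 was 1.07. The range of Tgfb1 rests on a count of 0 and so on the pseudocount (3.30 with 1 CPM). Ski had 2.23, Nrros 2.13, Smad7 1.24, Tgfbr2 1.24, Smad4 1.20, Smad3 0.82 and Tgfbr1 0.54, so 5 of the 10 members were above the median of all tested genes and 5 below. Wider ranges are commoner among genes with few counts, such as Tgfb1, than among well counted ones.

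**Figure D3:**
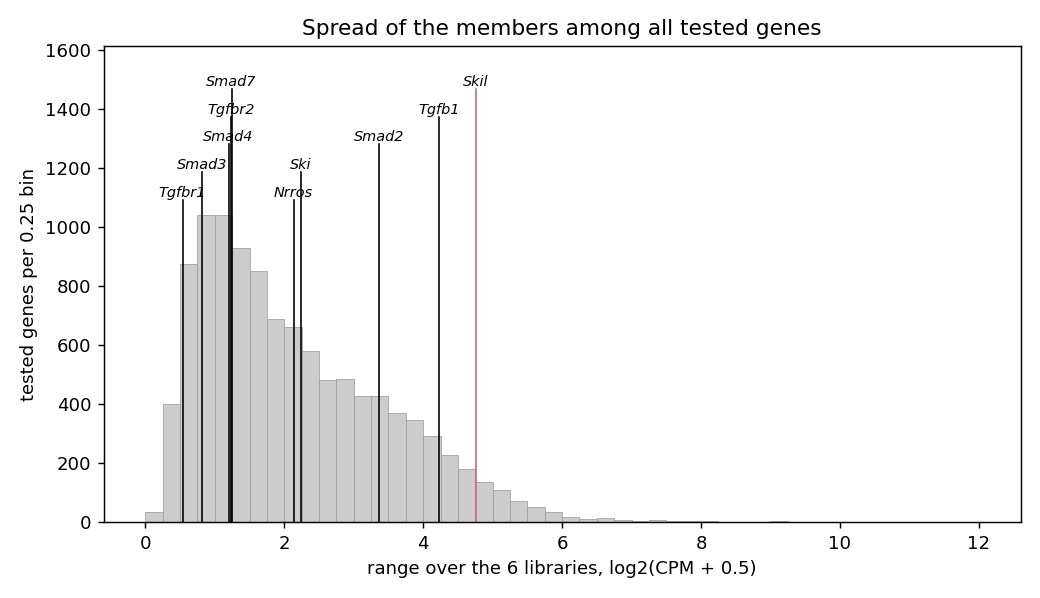
Number of tested genes (vertical axis) by their range over the 6 libraries on the scale of log2(CPM + 0.5) (horizontal axis, bins of 0.25), with a vertical line at each member. Skil, in red, lies at 4.75 in the right tail and Tgfbr1 at 0.54 near the left end.

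Across the members, no library was low or high throughout. Mll5+/- replicate 3 had the lowest value for 4 of the 10 genes (Tgfb1, Tgfbr2, Smad2 and Ski) and the highest for 2 (Smad3 and Smad4). The part of its lower depth and higher mitochondrial share in these values was not tested. WT replicate 3, the library of highest Skil, had the lowest value for Tgfbr1 and Smad3. Mll5+/- replicate 1 had the highest value for both Smad7 and Ski.

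Genes that varied most like Skil were looked for among 6696 tested genes with a mean of at least 10 CPM, by the root mean square difference of log2 deviations over the 6 libraries. With 6 libraries and this many genes some close matches are always found, so they are named as a description. The nearest were Mpp7 (difference 0.68), a scaffold protein gene, then Ggact (0.74), Rcsd1 (0.86), Ly96 (0.90), which encodes the MD-2 partner of TLR4, and Acp1 (0.90), a phosphatase gene. Mpp7 had 3.09, 12.4 and 41.0 CPM under the WT label and 15.4, 3.20 and 26.5 CPM under the Mll5+/- label, so it too was lowest in WT replicate 1 and Mll5+/- replicate 2 and highest in WT replicate 3. Ranges of the 5 genes were narrower than that of Skil, from 3.14 for Acp1 to 3.96 for Ly96.

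**Figure D4:**
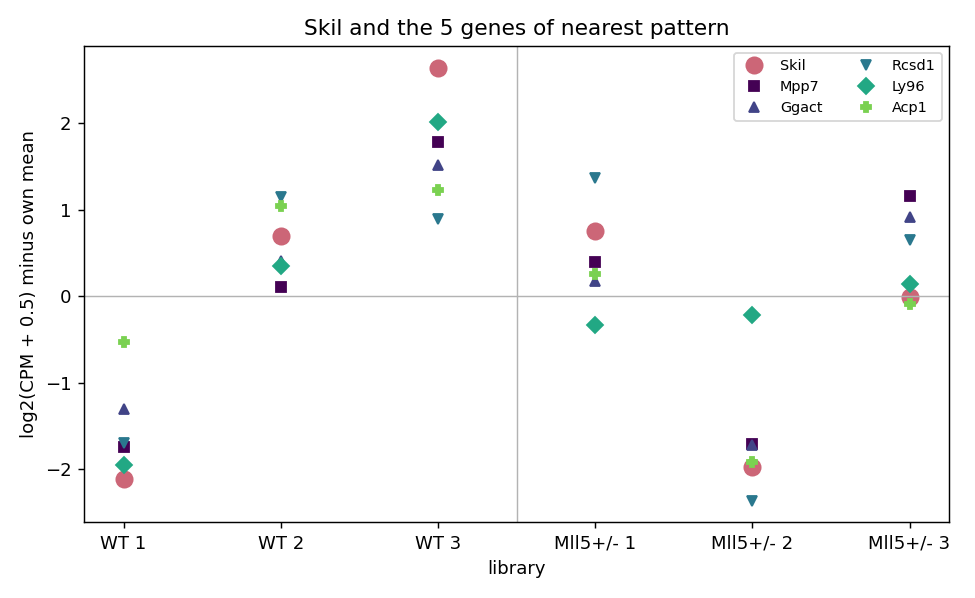
Deviation of each library from the gene's own mean on the scale of log2(CPM + 0.5) (vertical axis) for Skil (large circles) and the 5 genes of nearest pattern, in the 6 libraries (horizontal axis). Skil runs from 2.11 below its mean in WT replicate 1 to 2.64 above it in WT replicate 3, and 4 of the 5 other genes lie more than 1.5 below theirs in Mll5+/- replicate 2.

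Genes next to Skil did not show its spread in the same libraries. No other listed gene overlaps Skil, or any of the other 9 members, in the table's coordinates. Prkci, an atypical protein kinase C gene 42098 bases away, had 19.0, 14.4 and 28.4 CPM under the WT label and 31.6, 27.98 and 36.6 CPM under the Mll5+/- label. On the other side, Cldn11, a myelin tight-junction gene 27342 bases away, had 26.9, 0 and 6.04 CPM and 1.14, 0 and 4.91 CPM in the same order. Cldn11 was highest in WT replicate 1, in which Skil was lowest. The range of Cldn11 was 5.78, wider than the 4.75 of Skil, and rests on counts of 0 and so on the pseudocount. Prkci had a range of 1.32. Phc3, a polycomb gene further out, had a range of 1.07 and Sec62, a protein translocation gene, one of 0.88. Gpr160, described in the closing section, had 3.44.

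Other genes of the pathway were read from 8 lists of 84 genes, of which 61 were in the table and 58 were tested. None was called in edgeR when adjusted over all genes (0 of 58), and DESeq2 called 1, P2ry12. At an unadjusted p under 0.05, 0 were higher and 2 were lower in the libraries labelled Mll5+/- (3.45% of 58, against 2.88% of all tested genes, 1.36% in the higher and 1.52% in the lower direction). Both belong to the list of microglial genes that depend on TGF-beta. The median log2 fold change of the 58 was -0.12 and that of all tested genes was 0.02, and levels of 5 of the 58 (8.62%) did not overlap between labels, against 9.32% of all tested genes.

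Upstream of the members, Gdf11, a relative of the activins and the 1 other ligand tested, had 53.8, 38.8 and 32.1 CPM under the WT label and 44.1, 31.6 and 17.3 CPM under the Mll5+/- label. Of 9 other ligand genes 3 were listed, and Tgfb3 was not among them. Of the genes of latency and activation (7 tested, median -0.12), Itgb1, an integrin chain, had a log2 fold change of 0.06 (SE 0.314) and Itgb5, a chain that pairs with the alpha V integrin, one of -0.38 (SE 0.375). Of the other receptors (8 tested, median 0.17), Bmpr2, a type II receptor of BMP ligands, had -0.13 (SE 0.184). Acvr2b, an activin type II receptor, had 44.8, 50.9 and 53.5 CPM under the WT label and 42.6, 18.2 and 26.8 CPM under the Mll5+/- label, without overlap (log2 fold change -0.77, SE 0.391, edgeR unadjusted p = 0.0815).

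Within the cell, Smad1, a BMP-branch SMAD, had a log2 fold change of 0.05 (SE 0.353). Its branch partner Smad5 had 62.3, 52.0 and 3.33 CPM under the WT label and 60.5, 1.54 and 27.6 CPM under the Mll5+/- label. The highest library had 18.7 times the lowest under the WT label and 39.2 times under the Mll5+/- label, where Skil had 27.1 and 6.62 times. SMAD regulators and cofactors (17 tested) had a median of 0.00, with 8 positive and 9 negative. Pmepa1, a feedback inhibitor that TGF-beta itself induces, had 1849, 2284 and 2051 CPM under the WT label and 1797, 1691 and 1801 CPM under the Mll5+/- label. Its levels did not overlap, and edgeR put its log2 fold change at -0.23 (SE 0.137, unadjusted p = 0.136). In the arm that runs through the kinase TAK1 rather than SMADs (5 tested, median 0.16), Tab2 had 0.16 (SE 0.290) and Tab1 had 0.44 (SE 0.478), both TAK1-binding adaptors.

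Downstream, the listed SMAD target genes (5 tested) had a median of -0.17, with Id2, an inhibitor of bHLH factors, at -0.25 (SE 0.336) and Junb, an AP-1 subunit, at 0.50 (SE 0.355). The microglial genes that depend on TGF-beta (13 tested) had a median of -0.22, with 10 negative and 3 positive. Over all tested genes 5222 were negative and 5610 positive. Whether the 13 moved together was not tested, and only the 2 genes named next had an unadjusted p under 0.05 in edgeR. Gpr34, a lysophospholipid receptor, had 1083, 1241 and 1267 CPM under the WT label and 897, 793 and 585 CPM under the Mll5+/- label (log2 fold change -0.66, edgeR unadjusted p = 0.00711). P2ry12, a purinergic receptor, had 4269, 1366 and 5499 CPM and 1115, 1232 and 1087 CPM (log2 fold change -1.70, edgeR unadjusted p = 0.0103). Neither passed when adjusted over all genes in edgeR (adjusted p = 0.9995 for both). In DESeq2 P2ry12 passed (adjusted p = 0.0343) and Gpr34 did not (adjusted p = 0.509). WT replicate 2 lay close to the libraries labelled Mll5+/- for P2ry12. The lower levels of both genes were known before this list was made. Tmem119, of the same list, had levels that did not overlap in the other direction, with 197, 221 and 204 CPM under the WT label and 223, 232 and 222 CPM under the Mll5+/- label (log2 fold change 0.12, edgeR unadjusted p = 0.517).

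**Figure D5:**
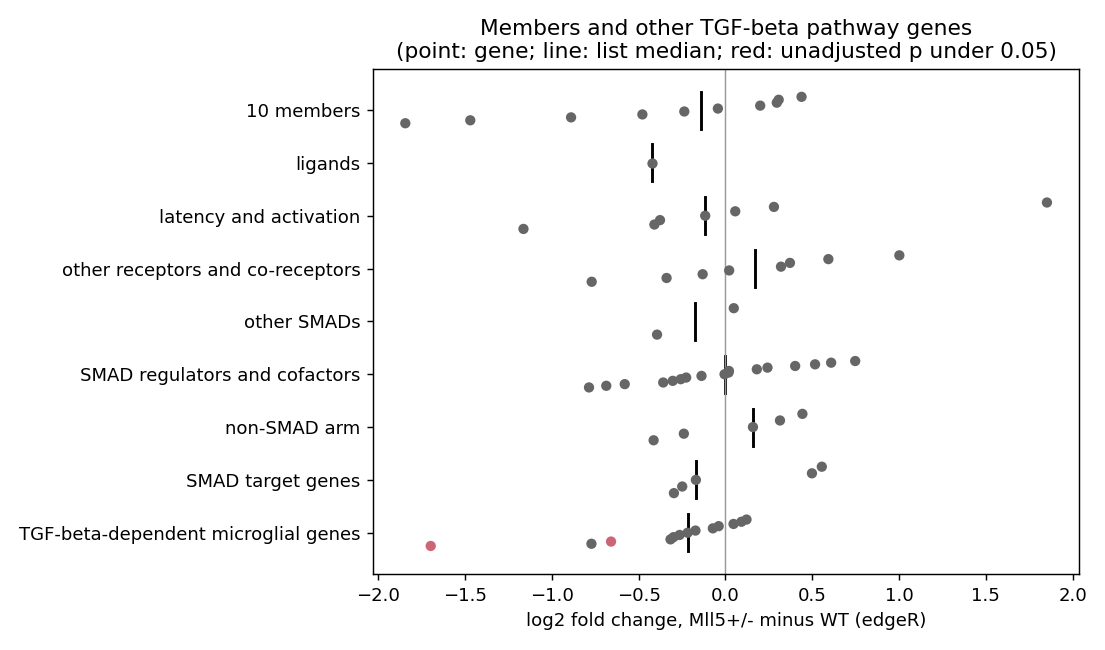
Fitted log2 fold change, Mll5+/- minus WT (horizontal axis), of each tested gene of the 10 members and of the 8 other lists, with a line at the list's median. The 2 red points, Gpr34 and P2ry12, are those with an unadjusted p under 0.05, and the medians of the 9 rows lie between -0.42 and 0.17.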

How the data were processed

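RNA-seq was done on 6 libraries of sorted hippocampal microglia, 3 labelled WT and 3 labelled Mll5+/-, grouped by the labelled genotype. Per the labels' protocols, TRIzol-extracted RNA was amplified by SMART-seq and made into libraries with a transposase kit. The authors deposited whole-number counts per gene symbol with mm39 coordinates. STAR, StringTie, FastQC and DESeq2 are named per the submitters' processing notes, with versions, strand setting and counting step not given in the sources used here. Each of the 11881 genes has a count in at least 2 libraries. The reads were amplified and carry no molecular identifiers, so limits from counts cover counting error only.

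Genes were kept with filterByExpr (minimum count 10, minimum total 15), leaving 10832, and scaled by TMM. The test was edgeR's quasi-likelihood test (robust; edgeR 4.0.16, limma 3.58.1, R 4.3.3), two-sided, Benjamini-Hochberg adjusted over all tested genes, threshold 0.05. SEs and 95% intervals were derived from the coefficient and the F statistic of each gene. P-values set the difference between labels against the spread between these libraries, with dispersions shared in part across genes, and do not test the spread itself. Ranges use 0.5 CPM as pseudocount. No libraries agreed within counting noise (smallest chi-square per degree of freedom of a pair, 183). The script was tested on simulated data.

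Other fits used limma-voom (sample weights), DESeq2 1.42.0, its size factors within edgeR, total counts, other low-count filters, a pseudocount of 1 CPM, an adjusted p threshold of 0.10 and leaving out each library. The members and lists were chosen with earlier results of these data known. Named beyond the members were the smallest-p and the most abundant gene of each list, and the 5 genes of pattern nearest to Skil, passing over predicted genes. Genes near Skil, Tmem119 and those in the closing section were named after their values were seen.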

Additional observations from a re-analysis of the deposited data

How the results depend on the processing

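The 10 log2 fold changes stayed short of an adjusted p of 0.05 in all 12 alternative fits. Over the left-out libraries, Tgfbr1 reached its lowest, -0.17, when WT replicate 3 was dropped and its highest, 0.081, when WT replicate 1 was, and it was 0.035 without Mll5+/- replicate 2. Tgfbr2 ran from -0.61 (without Mll5+/- replicate 2) to 0.011 (without Mll5+/- replicate 3). Smad4 was lowest, at -0.067, with WT replicate 2 left out and highest, at 0.38, with WT replicate 1 left out, and it was -0.0037 without Mll5+/- replicate 3. Skil ran from -2.14 (without Mll5+/- replicate 1) to 0.075 (without WT replicate 3), and was -0.53 in limma-voom. Tgfb1, Nrros, Smad2, Smad3, Smad7 and Ski kept their sign in all 12. The range of Skil over the libraries ran from 2.86 (without WT replicate 3) to 4.75 over the left-out libraries. With 1 library left out, between 0 and 1 member had levels without overlap: Tgfb1 without WT replicate 1 (17.6% of tested genes then lacked overlap), Smad2 without WT replicate 2 (17.2%), Smad3 without Mll5+/- replicate 1 (19.8%) and Ski without Mll5+/- replicate 3 (18.7%). Over all genes, 0 passed in edgeR, 29 in DESeq2, and between 0 and 2 with 1 library left out. Of the other pathway genes, the number lower at an unadjusted p under 0.05 was 2 in edgeR, 3 in DESeq2 (with Tgfb2, which edgeR's filter left out), 1 in limma-voom, 5 without a low-count filter and between 1 and 6 over the left-out libraries, and the number higher was 0, and between 0 and 1 over the left-out libraries. The cause of these moves was not tested. No paired analysis was possible because the labels name no pairing, and each title ends in a number that the genotypes do not share. Whole libraries were not checked as outliers. DESeq2's default flag on outlying counts was left on, and DESeq2 gave no p-value for Furin, described below.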

Other observations

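Some other genes of the pathway, picked here after their values were seen, were far lower in 1 or 2 libraries than in others of the same label. Those described in this paragraph were low under the Mll5+/- label. Low libraries under the WT label occurred too, as for Smad5 above and for Mmp14, with 2.01, 15.4 and 0.520 CPM under the WT label. Furin, the protease that cuts the TGF-beta precursor, had 121, 158 and 156 CPM under the WT label and 185, 7.20 and 2.17 CPM under the Mll5+/- label. Its range of 6.12 on the scale of log2(CPM + 0.5) was wider than that of Skil, and edgeR put its log2 fold change at -1.16 (SE 1.62, unadjusted p = 0.506). Smurf1, a ubiquitin ligase that targets SMADs and receptors, had 88.0, 81.4 and 49.2 CPM and 4.34, 87.2 and 54.7 CPM. Eng, a co-receptor better known from endothelial cells, had 25.8, 20.2 and 23.6 CPM and 45.4, 24.1 and 1.23 CPM. Tgif2, a SMAD corepressor, had 11.2, 12.3 and 10.2 CPM and 14.9, 41.3 and 0.520 CPM. Mll5+/- replicate 3 was the low library for Eng and Tgif2 and one of 2 for Furin, and Mll5+/- replicate 1 was low for Smurf1. Of the 58 tested pathway genes beside the members, 15 were lowest in Mll5+/- replicate 3 alone (25.9%, against 21.9% of all tested genes), Ppm1a and Nedd4l among them, and between 5 and 11 in each of the other libraries.

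Gpr160, an orphan receptor gene 197865 bases from Skil, had 5.77, 5.16 and 1.25 CPM under the WT label and 11.1, 11.1 and 18.5 CPM under the Mll5+/- label, without overlap (log2 fold change 1.74, SE 0.775, edgeR unadjusted p = 0.0520, adjusted p = 0.9995). It was lowest in the library in which Skil was highest.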
